A study of Mus musculus with 11 samples.

Results

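Chemokines and their receptors are the genes described here, in 2 fractions of keratinocytes from the back skin of K5-myrAkt(L84) mice. The rule took each gene whose only symbol in the platform annotation is a Ccl, Cxcl, Ccr, Cxcr or Ackr name, together with Xcl1 and Cx3cl1, and it found 51 of 18193 named genes on 82 probe sets. Where a gene had several probe sets, the one that was brightest on average across the 11 arrays stood for it. The CD34+ fraction, hair follicle stem cells by its label, had 5 arrays, and the CD34- fraction had 6. Every sample carries the transgene, an active form of the kinase Akt driven by the keratin 5 promoter of basal keratinocytes, and no fraction from mice without it was analysed here. Cells were labelled with an antibody against CD34 and separated on magnetic beads, so other skin cells may be present in either fraction. The label of the CD34- samples also calls them follicle stem cells, whereas the design text calls them CD34- cells. Neither the age of the mice is given nor whether each array had its own animals, so p-values reflect only how far these arrays vary, which may be technical. Cd34 itself averaged 11.83 ± 1.17 (SD, n = 5) in the CD34+ fraction and 4.20 ± 1.57 (SD, n = 6) in the CD34- fraction, as log2 signal. All 7 bulge markers measured were called higher in the CD34+ fraction (100%, beside 12.4% of all genes tested). That list was chosen with earlier results of these data known. One of its genes, Lhx2, had a CD34- mean of 6.50 and passed the brightness filter described below only through the CD34+ fraction. Krt5, the keratin of basal keratinocytes, differed by -0.07 on the log2 scale.

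Chemokines are small secreted proteins that attach to sugar chains on cells and matrix and draw leukocytes along gradients. They act through receptors of the G protein-coupled class, named by the spacing of the first cysteines of their ligands. Atypical chemokine receptors bind ligands without activating G proteins and take them out of the extracellular space. In skin, keratinocytes, Langerhans cells, fibroblasts and T cells all make chemokines, and the hair follicle is a site of entry for leukocyte precursors of the epidermis in mice.

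Promoters of 4 ligands are shown because they carry letters of the motifs bound by the transcription factors that cytokines activate, and because the genes belong to the families of interferon-induced and neutrophil-attracting ligands described below. The sequences are those of RefSeq on the build GRCm38.p6, the 250 bases before the annotated start, written 5′ to 3′ on the strand of the gene, with the matched motifs in capitals. Cxcl9 lies at chr5:92328080-92328329 on the minus strand, and the capitals mark the core of an interferon-stimulated response element, 175 to 167 bases before the start. Cxcl10 lies at chr5:92348890-92349139 on the minus strand, with the same core at 213 to 205 and a kappaB motif at 158 to 150 bases before the start. Cxcl1 lies at chr5:90890995-90891244 on the plus strand, with a kappaB motif 70 to 62 bases before the start. Cxcl2 lies at chr5:90903649-90903898 on the plus strand, with a kappaB motif 96 to 88 bases before the start.
Cxcl9: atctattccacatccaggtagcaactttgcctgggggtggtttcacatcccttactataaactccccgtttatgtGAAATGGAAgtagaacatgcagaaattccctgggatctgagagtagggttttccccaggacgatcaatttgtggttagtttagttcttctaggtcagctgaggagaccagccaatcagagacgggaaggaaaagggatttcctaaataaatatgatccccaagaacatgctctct
Cxcl10: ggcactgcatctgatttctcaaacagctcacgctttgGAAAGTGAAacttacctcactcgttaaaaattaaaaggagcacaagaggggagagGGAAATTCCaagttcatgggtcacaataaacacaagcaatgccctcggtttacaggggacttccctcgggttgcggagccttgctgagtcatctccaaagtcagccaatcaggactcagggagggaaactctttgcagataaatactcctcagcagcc
Cxcl1: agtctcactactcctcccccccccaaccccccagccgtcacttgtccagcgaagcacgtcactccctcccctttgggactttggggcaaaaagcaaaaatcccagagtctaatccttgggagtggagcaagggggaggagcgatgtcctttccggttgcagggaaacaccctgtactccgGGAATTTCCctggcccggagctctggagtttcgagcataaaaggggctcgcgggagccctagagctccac
Cxcl2: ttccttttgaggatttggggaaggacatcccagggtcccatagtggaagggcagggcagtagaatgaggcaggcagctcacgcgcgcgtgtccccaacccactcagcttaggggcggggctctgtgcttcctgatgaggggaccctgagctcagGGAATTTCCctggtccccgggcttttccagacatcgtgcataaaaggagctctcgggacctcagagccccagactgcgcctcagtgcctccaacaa

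Both strands were searched for GAAANNGAA as the interferon-stimulated core, GGANTTTCC as the kappaB motif and TTCNNNGAA as the gamma-activated site, where N stands for any base. A promoter was given for 38 of the 51 genes, with 42 promoters in all. The interferon-stimulated core was found in 6 of these 42 (14.29%), against 7.13% of all 32851 promoters. The 6 were those of Cxcl9, Cxcl10, Cxcl14, Ccl1, Ccl3 and Ccr2, of which only Cxcl9 and Cxcl10 belong to the interferon-induced ligands described below. The kappaB motif was found in 5 of 42 (11.9%), in Cxcl1, Cxcl2, Cxcl3, Cxcl10 and Ccr3, against 1.07% of all promoters. Cxcl1, Cxcl2 and Cxcl3 lie in the same run of neighbouring genes on chromosome 5 and carry identical motif letters. These 5 are therefore not independent. The gamma-activated site was found in 3 of 42 (7.14%), in Cxcl14, Ccr6 and Ccl17, against 7.02% of all promoters. A match of letters describes the sequence and is not evidence that a factor binds there.

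Of the 51 genes, 22 passed the brightness filter, which left out the dimmest 40% of all genes by mean log2 signal, and 29 (56.9%) did not. Ccl17 lay just inside it and Cxcl13 just outside, with means over all arrays of 6.59 and 6.56. Among the 22, the CD34+ fraction had higher signal for the ligands Cxcl9, Cxcl12, Cxcl17 and Ccl17. It had lower signal for the atypical receptor Ackr3, the receptor Ccr6 and the T cell ligand Xcl1. The atypical receptor Ackr4 was also lower, but on its brightest probe set only. The other 14 were not called. Called means an adjusted p under 0.05 in a limma model, with Benjamini-Hochberg adjustment over the 10916 genes tested, and each adjusted p below is from that model unless another is named. The 4 genes called higher are 18.2% of the 22, beside 12.4% of all genes tested, and the 4 called lower are 18.2%, beside 12.3%. One gene is 4.55% of the 22, so these counts do not set the family apart from other genes. Among the called genes, Cxcl17 and Ccl17 had CD34- means of 6.40 and 5.97, and Xcl1 had a CD34+ mean of 6.43. These lie under 6.59, the lowest mean over all arrays of a gene that passed. Cxcl17, Ccl17 and Xcl1 thus passed only through the fraction where they were higher, and the counts include them. All CD34+ arrays lay above all CD34- arrays for 3 genes (13.6%, beside 7.64% of all genes) and below them for 3 genes (13.6%, beside 7.37%). The median log2 difference, CD34+ minus CD34-, was -0.086 over the 22 and -0.0044 over all genes tested. In such bulk samples, fewer cells of a type and less RNA per cell cannot be told apart.

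**Figure D1:**
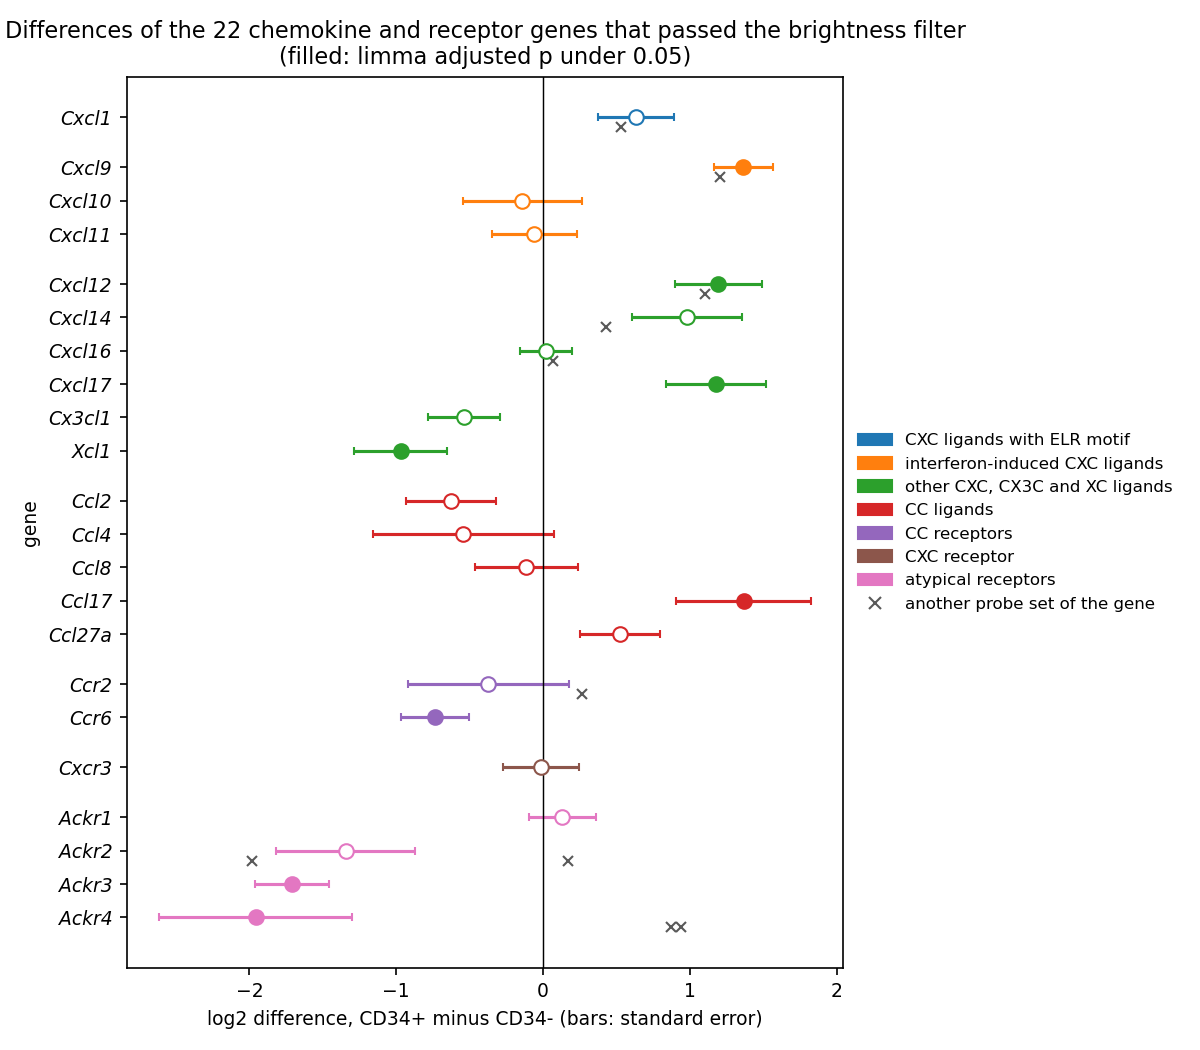
Log2 difference, CD34+ minus CD34-, on the horizontal axis for each of the 22 genes that passed the brightness filter, grouped by role and named on the vertical axis. Points are limma estimates from 5 CD34+ and 6 CD34- arrays, bars are standard errors, filled points have an adjusted p under 0.05, and crosses are other probe sets of the same gene. The called differences run from -1.96 for Ackr4 to 1.37 for Ccl17, and the crosses of Ackr4 lie on the opposite side of 0 from its point.

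A measure of the length of labelled copies, which RNA integrity can affect, moved with the fractions. The actin ratio, taken as 3-prime minus 5-prime control probe set on the log2 scale, which grows as labelled copies become shorter, was 5.25, 4.56, 3.97, 2.91 and 3.06 on CD34+ arrays 1 to 5 and 2.19 to 2.76 on the CD34- arrays. Every CD34+ array was above every CD34- array, and CD34+ array 1 was highest. That array also had the lowest median correlation with its own group, 0.853, against 0.881 to 0.926 for the other 10 arrays. With the actin ratio as a covariate, which takes up much of the contrast itself, none of the 22 genes was called, and over all genes tested 96 were called higher and 30 lower. In that fit Cxcl9 had a difference of 1.42 (adjusted p = 0.0544) and Ackr3 one of -1.19 (adjusted p = 0.151). Cxcl12 had 0.94 (adjusted p = 0.426) and Cxcl17 0.93 (adjusted p = 0.501). The part of RNA integrity in the differences below was not tested.

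Among the CXC ligands induced by interferon, Cxcl9 was higher in the CD34+ fraction, while Cxcl10 and Cxcl11 were not called. All 3 encode ligands of the receptor CXCR3, which is carried by activated T cells and natural killer cells. The log2 signal of Cxcl9 was 9.82, 9.14, 8.90, 9.72 and 9.81 on CD34+ arrays 1 to 5, and 7.74 at the lowest, 8.17 at the median and 8.41 at the highest on the 6 CD34- arrays. Every CD34+ array lay above every CD34- array. Means were 9.48 ± 0.43 (SD, n = 5) in CD34+ and 8.11 ± 0.25 (SD, n = 6) in CD34-, a difference of 1.36 (SE 0.20, adjusted p = 0.000562), or 2.57-fold. A second probe set gave 1.21 (adjusted p = 0.00759), and the gene was called in all 11 fits that each left out 1 array.

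Cxcl10 had 8.19, 6.32, 8.36, 8.18 and 8.95 on the CD34+ arrays, and 7.10, 8.24 and 8.78 as the lowest, median and highest on the CD34- arrays. Its difference was -0.14 (SE 0.41, adjusted p = 0.825), and 0.28 (adjusted p = 0.522) without CD34+ array 2. Cxcl11 had 7.52, 7.81, 8.07, 9.02 and 9.01 on the CD34+ arrays, and 7.87, 8.39 and 8.76 as the lowest, median and highest on the CD34- arrays, with a difference of -0.06 (SE 0.29, adjusted p = 0.899). A second, dim probe set of Cxcl11 averaged 6.25 in CD34+ and 5.32 in CD34-, and the mean of both probe sets gave 0.43 (adjusted p = 0.263). The arrays of both fractions overlapped for these genes, and neither difference has a settled sign. The difference of Cxcl9 exceeded that of Cxcl10 by 1.504 and that of Cxcl11 by 1.42, in exact two-sided permutation tests over the 462 splits of the arrays (n = 5 and 6, p = 0.00433 and p = 0.00216, each 0.00433 after adjustment over these 2 comparisons). The smallest p such a test can give is 0.00216, and the pairs were chosen after the values were seen. With each array left out in turn the excess was 1.17 to 1.74 over Cxcl10 (highest exact p = 0.0159) and 1.14 to 1.55 over Cxcl11 (highest exact p = 0.00794). On the mean of probe sets it was 1.43 over Cxcl10 (exact p = 0.0108) and 0.85 over Cxcl11 (exact p = 0.0195). The receptor gene Cxcr3 had a difference of -0.01 (SE 0.26, adjusted p = 0.977).

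A list of 12 interferon-gamma pathway genes, chosen with earlier results of these data known, had 11 measured and 9 that passed the filter. Of these, 1 was called higher (11.1%, beside 12.4% of all genes) and 2 lower (22.2%, beside 12.3%), with a median difference of -0.32. Jak2, a kinase of the receptor, was higher by 0.33 (adjusted p = 0.042). Ifngr1, which encodes the ligand-binding chain of the receptor, was lower (-1.30, adjusted p = 0.00283), and so was the receptor kinase gene Jak1 (-0.73, adjusted p = 0.0258).

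Cxcl12, its receptor Cxcr4 and the atypical receptor Ackr3 form a ligand, signalling receptor and scavenging receptor. CXCL12 keeps stem cells and leukocytes in place in bone marrow and other tissues, and ACKR3 binds it and removes it. Cxcl12 had a log2 signal of 11.55, 9.56, 9.58, 10.46 and 10.55 on CD34+ arrays 1 to 5, and 8.89, 9.05 and 9.54 as the lowest, median and highest on the CD34- arrays. The fractions did not overlap, although CD34+ arrays 2 and 3 lay close to the highest CD34- array. The difference was 1.20 (SE 0.30, adjusted p = 0.0117), or 2.29-fold, from means of 10.34 ± 0.82 (SD, n = 5) in CD34+ and 9.14 ± 0.28 (SD, n = 6) in CD34-. It was 0.89 without CD34+ array 1, the gene was called in all 11 fits that left out an array, and another probe set gave 1.10 (adjusted p = 0.038). The mean of its probe sets, a dim one included, gave 0.88 and was not called (adjusted p = 0.087).

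Ackr3 moved the other way. Its log2 signal was 7.42, 9.19, 9.02, 8.59 and 8.82 on the CD34+ arrays, and 10.15, 10.33 and 10.50 as the lowest, median and highest on the CD34- arrays. Every CD34+ array lay below every CD34- array, and the CD34- values were close together. Means of 8.61 ± 0.70 (SD, n = 5) in CD34+ and 10.32 ± 0.12 (SD, n = 6) in CD34- gave a difference of -1.71 (SE 0.25, adjusted p = 0.000542), which is 3.27-fold lower. Without CD34+ array 1 it was -1.41, and the gene was called in all 11 fits that left out an array. A single probe set measured Ackr3, of a kind that can match several transcripts, so no other probe set could be compared.

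Cxcr4 did not pass the brightness filter and was dim in the CD34- fraction only. It had 7.53, 6.998, 6.62, 7.44 and 7.56 on the CD34+ arrays, and 3.52, 5.19 and 5.66 as the lowest, median and highest on the CD34- arrays. All CD34+ arrays lay above all CD34- arrays, and the 6 CD34- values were under the 40th percentile of their own array. That percentile was 6.04 to 6.66 on CD34+ arrays and 5.63 to 5.86 on CD34- arrays. Raising values to it therefore shifts dim genes upward in CD34+, by 0.55 for a gene under it on every array, such as Ccl24. No CD34+ value of Cxcr4 was under the percentile, and with its CD34- values raised it was at least 2.83-fold higher in the CD34+ fraction. A limma fit of all 18193 genes without the filter gave 2.26 (SE 0.43, adjusted p = 0.00339).

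**Figure D2:**
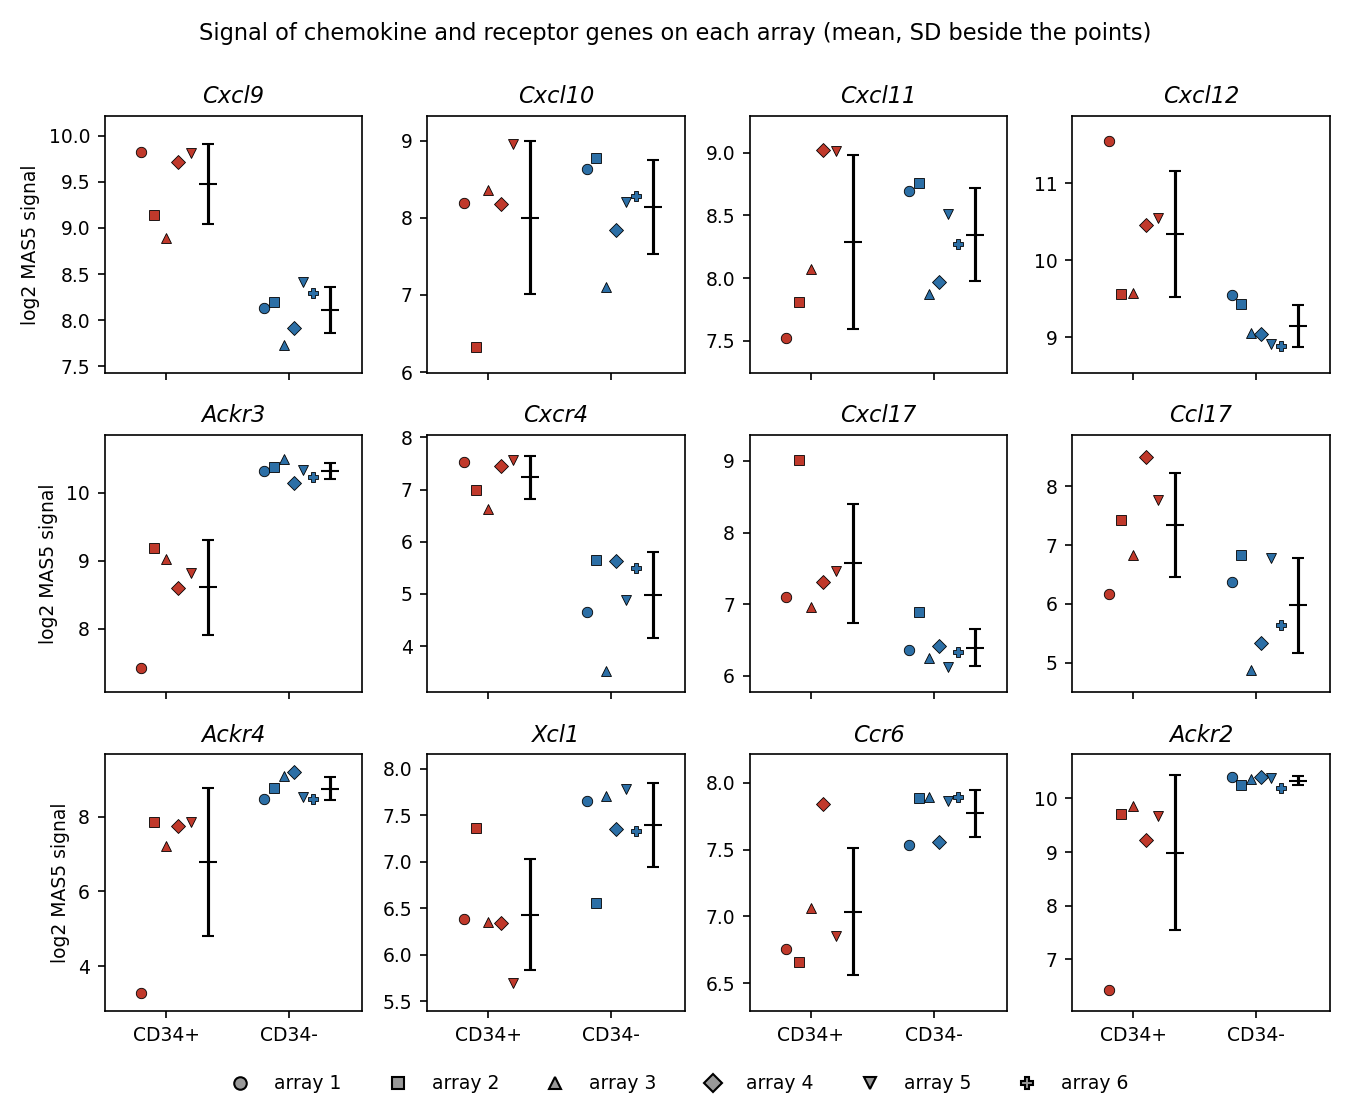
Log2 signal of single arrays on the vertical axis for the gene named above each panel, with CD34+ arrays at the left and CD34- arrays at the right. Each point is 1 array on the brightest probe set of the gene, its shape gives the array number, and bars are the mean and SD. Cxcl9, Cxcl12 and Cxcl17 lie higher in CD34+ with no overlap, Ackr2, Ackr3 and Ackr4 lie lower with no overlap, and CD34+ array 1 stands at 3.28 for Ackr4.

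The remaining atypical receptors were Ackr4, Ackr2 and Ackr1. ACKR4 takes up the homeostatic ligands CCL19, CCL21 and CCL25. On its brightest probe set Ackr4 had 3.28, 7.86, 7.22, 7.76 and 7.84 on the CD34+ arrays, and 8.46, 8.65 and 9.18 as the lowest, median and highest on the CD34- arrays. All CD34+ arrays lay below the CD34- arrays, and CD34+ array 1 was far below the rest. The difference was -1.96 (SE 0.66, adjusted p = 0.0427), or 3.89-fold lower, and -1.08 without CD34+ array 1. Its other probe sets ran the opposite way, at 0.94 (adjusted p = 0.0552) and 0.87 (adjusted p = 0.0819), and the mean of its probe sets gave -0.05 (adjusted p = 0.918). The direction of Ackr4 depended on the probe set. The call was also lost when CD34+ array 3 or any 1 of the CD34- arrays was left out (adjusted p 0.0520 to 0.0803).

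ACKR2 removes inflammatory CC chemokines from skin. Ackr2 had 6.44, 9.72, 9.85, 9.23 and 9.68 on the CD34+ arrays, and 10.20, 10.37 and 10.40 as the lowest, median and highest on the CD34- arrays. Again every CD34+ array was below every CD34- array. The difference of -1.34 (SE 0.47) had an adjusted p of 0.0501 and was not called. Without CD34+ array 1 the difference was -0.71 and the adjusted p was 0.00222, and the gene was also called when CD34+ array 2, 3 or 5 was left out (adjusted p 0.0356 to 0.0479). Its other probe sets gave -1.99 (adjusted p = 0.0165) and 0.17 (adjusted p = 0.658). Ackr1, a receptor of red cells and venules, differed by 0.13 (SE 0.23, adjusted p = 0.701).

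Other CXC, CX3C and XC ligands differed in direction. Cxcl17, a chemokine of mucosal surfaces, had a log2 signal of 7.10, 9.02, 6.97, 7.31 and 7.46 on the CD34+ arrays, and 6.12, 6.35 and 6.89 as the lowest, median and highest on the CD34- arrays. The fractions did not overlap, and CD34+ array 2 was the highest by a wide margin. Means of 7.57 ± 0.83 (SD, n = 5) in CD34+ and 6.40 ± 0.26 (SD, n = 6) in CD34- gave a difference of 1.18 (SE 0.34, adjusted p = 0.0242), or 2.26-fold. It was 0.82 without CD34+ array 2, and the gene was called in all 11 fits that left out an array, with a highest adjusted p of 0.0482. With quantile normalization it was 0.80 (adjusted p = 0.116).

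Xcl1 encodes lymphotactin, made by activated T cells and natural killer cells. It had 6.39, 7.36, 6.35, 6.34 and 5.70 on the CD34+ arrays, and 6.56, 7.50 and 7.78 as the lowest, median and highest on the CD34- arrays. CD34+ array 2 lay within the CD34- values, and the other 4 CD34+ arrays lay below them. Means of 6.43 ± 0.60 (SD, n = 5) in CD34+ and 7.398 ± 0.45 (SD, n = 6) in CD34- gave a difference of -0.97 (SE 0.31, adjusted p = 0.0376), or 1.96-fold lower. The call was lost without CD34+ array 3, 4 or 5 and without CD34- array 1, 3, 4, 5 or 6 (adjusted p 0.0572 to 0.0812). Its receptor gene Xcr1 did not pass the filter.

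Cxcl14, a chemokine that epithelia make constantly, had 13.65, 10.84, 11.92, 11.34 and 11.86 on the CD34+ arrays, and 10.50, 10.93 and 11.48 as the lowest, median and highest on the CD34- arrays. Its difference of 0.98 (SE 0.37, adjusted p = 0.0675) was not called. CD34+ array 1 stood above all others, and the difference was 0.55 without it and 1.25 (adjusted p = 0.0274) without CD34+ array 2. Another probe set gave 0.43 (adjusted p = 0.33). Cxcl16, a membrane-bound ligand of the T cell receptor CXCR6, differed by 0.02 (SE 0.17, adjusted p = 0.946). Cx3cl1, the membrane-bound chemokine fractalkine, differed by -0.54 (SE 0.25, adjusted p = 0.119), and by -0.29 without CD34+ array 2. Its receptor gene Cx3cr1 was called lower (-0.78, SE 0.21, adjusted p = 0.0173), the only 1 of the related receptors Cx3cr1, Ccrl2 and Xcr1 that passed the filter. Cxcr6 did not pass it and had 2.61, 4.66, 5.78, 6.80 and 6.18 on the CD34+ arrays, against 6.81, 7.33 and 7.66 as the lowest, median and highest on the CD34- arrays. The CD34+ values all lay below the CD34- values, that of array 4 by a narrow margin. The fit without the filter gave -2.10 (SE 0.58, adjusted p = 0.0265), with -0.88 when values were raised to the 40th percentile.

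Among the CC ligands, Ccl17 was called higher and 4 others that passed the filter were not called. CCL17 attracts T cells through CCR4 and is made by dendritic cells and keratinocytes. It had 6.18, 7.43, 6.84, 8.50 and 7.76 on the CD34+ arrays, and 4.88, 6.01 and 6.83 as the lowest, median and highest on the CD34- arrays. CD34+ array 1 lay among the CD34- values, and the other CD34+ arrays lay above them, array 3 by a narrow margin. Means of 7.34 ± 0.88 (SD, n = 5) in CD34+ and 5.97 ± 0.81 (SD, n = 6) in CD34- gave a difference of 1.37 (SE 0.46, adjusted p = 0.0427), or 2.58-fold. The values were under the 40th percentile on 1 CD34+ and 3 CD34- arrays, and raised to it they differed by 1.20. The call was lost without CD34+ array 2, 4 or 5 and without CD34- array 1, 3, 4 or 6 (adjusted p 0.0523 to 0.104), and with quantile normalization (0.89, adjusted p = 0.193). On chromosome 8 it neighbours Cx3cl1 and Ccl22, of which Cx3cl1 was not called, as above, and Ccl22 was dim in both fractions.

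Ccl2, the main attractant of monocytes, differed by -0.62 (SE 0.31, adjusted p = 0.146) and by -0.89 (adjusted p = 0.0483) with quantile normalization. Ccl4, an inflammatory CC chemokine, differed by -0.54 (SE 0.61, adjusted p = 0.541), and by 0.24 without CD34+ array 1, where it had 3.34 against 6.97 to 7.51 on the other CD34+ arrays. Ccl8, another of that class, differed by -0.11 (SE 0.35, adjusted p = 0.839), and by 0.25 without CD34+ array 2. Ccl27a, which encodes a keratinocyte chemokine that acts on CCR10 of skin-homing T cells, differed by 0.53 (SE 0.27, adjusted p = 0.171). Its probe set is of a kind that can also match near-identical transcripts, so its value is uncertain.

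Of the 2 CC receptors that passed, Ccr6 was called lower. CCR6 is the receptor of CCL20 and is carried by T cells, B cells and dendritic cells. It had 6.76, 6.66, 7.06, 7.84 and 6.86 on the CD34+ arrays, and 7.54, 7.87 and 7.90 as the lowest, median and highest on the CD34- arrays. CD34+ array 4 lay within the CD34- values, and the other 4 lay below them. The difference was -0.74 (SE 0.23, adjusted p = 0.0344), or 1.67-fold lower, from means of 7.04 ± 0.48 (SD, n = 5) in CD34+ and 7.77 ± 0.18 (SD, n = 6) in CD34-. The call was lost without CD34+ array 1, 2 or 5 and without CD34- array 2, 3, 5 or 6 (adjusted p 0.0545 to 0.0699). Its ligand gene Ccl20 was dim on all but 1 array. Ccr2, the receptor of CCL2 on monocytes, differed by -0.37 (SE 0.55, adjusted p = 0.644), and by 0.26 without CD34+ array 1.

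Among the ligands with the ELR motif, which attract neutrophils through CXCR2, Cxcl1 passed the filter and was not called. It had 7.84, 8.92, 7.84, 8.15 and 8.21 on the CD34+ arrays, and 6.93, 7.66 and 8.06 as the lowest, median and highest on the CD34- arrays, a difference of 0.63 (SE 0.26, adjusted p = 0.0873). The arrays overlapped. Cxcl2, whose promoter holds the same kappaB letters, did not pass the filter and had 7.06, 6.89, 4.77, 8.43 and 7.66 on the CD34+ arrays, and 2.98, 4.93 and 6.32 as the lowest, median and highest on the CD34- arrays. CD34+ array 3 lay among the CD34- values and the other 4 lay above them. The fit without the filter gave 2.07 (SE 0.67, adjusted p = 0.0485), and raised to the 40th percentile the fold was 2.58. That fold raised CD34+ array 3 and 4 CD34- arrays, to percentiles that are higher on CD34+ arrays, as above. Cxcl5 had a difference of 2.49 (SE 0.87, adjusted p = 0.0639) in that fit, but all 11 of its values lay under the 40th percentile.

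The fit of all 18193 genes without the filter called 6 of the 51 genes higher (11.8%, beside 8.23% of all genes) and 3 lower (5.88%, beside 6.44%). Of the 29 dim genes, 3 were called higher, Cxcr4, Ccr9 and Cxcl2, and 1 lower, Cxcr6. Among the 8 genes called with the filter, 3 were not called in this fit, Ccl17 (adjusted p = 0.0584), Ccr6 (adjusted p = 0.0610) and Xcl1 (adjusted p = 0.0600). Ccr9, the receptor of CCL25, had 6.34, 7.49, 7.41, 7.20 and 6.93 on the CD34+ arrays, and 5.18, 5.95 and 6.33 as the lowest, median and highest on the CD34- arrays. No array overlapped, although the lowest CD34+ array was close to the highest CD34- array. The difference was 1.24 (SE 0.35, adjusted p = 0.0268), on a probe set that can match other transcripts, and its other 4 probe sets were dim. The other 24 dim genes, besides Cxcl5, were Cxcl13, Ccl28, Ccl1, Ccl7, Ccl25, Ccr4, Ccl9, Ccl22, Cxcr5, Ccl6, Ccr1, Ccr10, Ccl5, Cxcr2, Ccl24, Cxcl15, Cxcl3, Ccl20, Ccl3, Ccr8, Ccl11, Ccr7, Ccr3 and Ccl12, and none of these was called. No detection calls were used, so their low values are read as dim and not as absent.

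**Figure D3:**
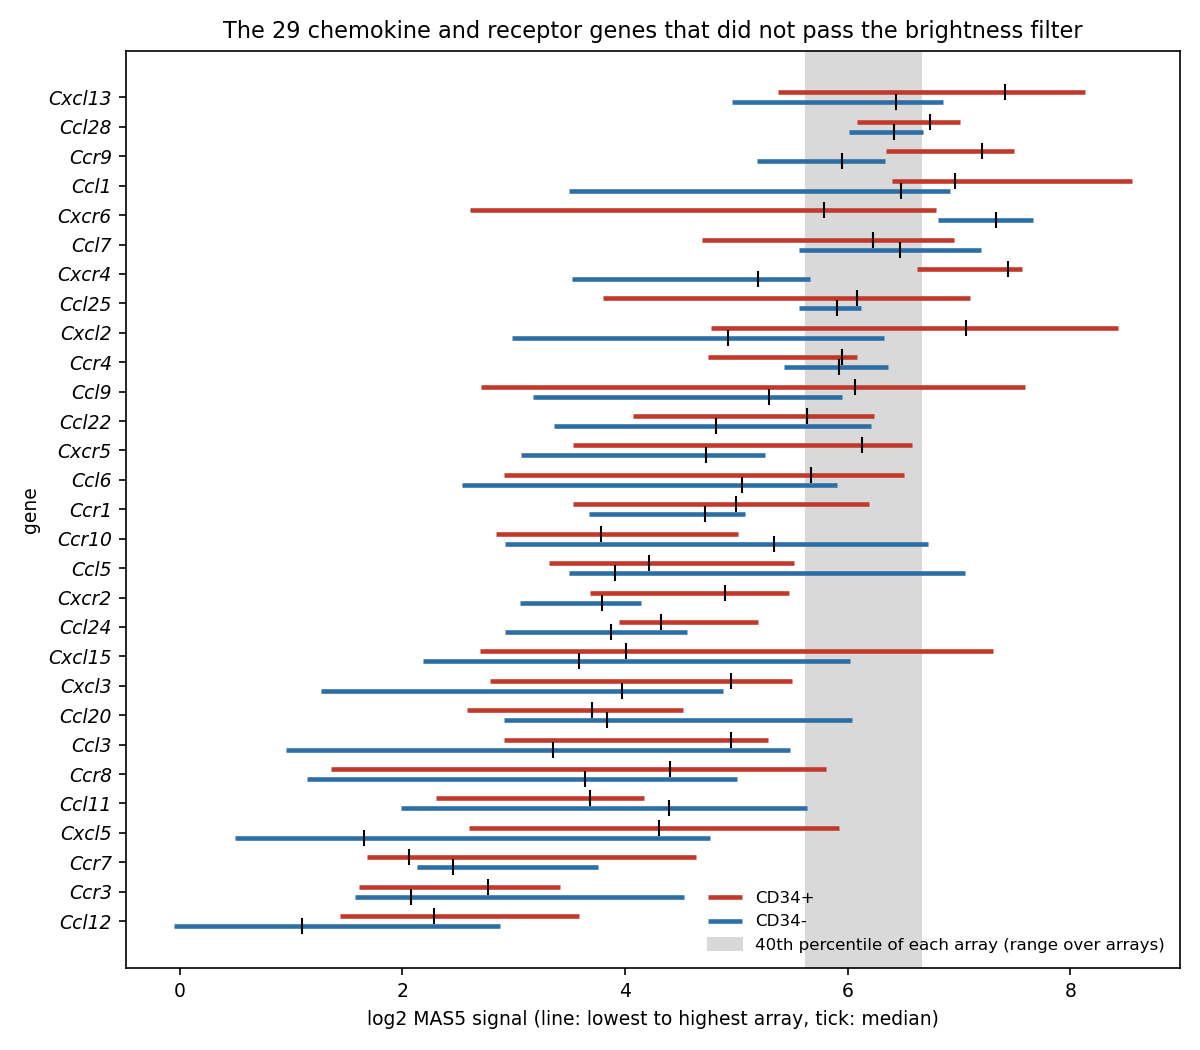
Log2 signal of the 29 genes that did not pass the brightness filter, on the horizontal axis, with the CD34+ line above the CD34- line for each gene on the vertical axis. Lines run from the lowest to the highest array, ticks are medians, and the grey band is the range of the 40th percentiles of the arrays. The CD34+ values of Cxcr4 and Ccr9 all lie above the CD34- values, and those of Cxcr6 all lie below.

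Genes that carry chemokine signals or switch the ligands on were read from lists chosen with earlier results of these data known. Of 25 genes of receptor signal transduction, 20 passed, 1 was called higher and 4 lower, with a median difference of -0.31. These are 5% and 20% of the 20, beside 12.4% and 12.3% of all genes. Elmo1, which links receptors to Rac, was higher (0.86, adjusted p = 0.0239). Gnai1, an inhibitory G protein subunit (-0.47, adjusted p = 0.00583), and Arrb1, a beta-arrestin (-0.57, adjusted p = 0.0373), were lower. So were Rgs1, which ends G protein signals (-1.35, adjusted p = 0.00685), and the small GTPase gene Rac1 (-0.82, adjusted p = 0.0157). Among 17 genes of the NF-kB pathway 14 passed, with 0 called higher and 4 lower by limma, and 1 higher and 5 lower at an unadjusted p under 0.05. The 4 are 28.6% of the 14, beside 12.3% of all genes. These were Relb (-0.88, adjusted p = 0.0173), Tnfaip3, an inhibitor of the pathway (-0.85, adjusted p = 0.00337), Ikbkb (-0.62, adjusted p = 0.00718) and Traf2 (-0.53, adjusted p = 0.0341). Of 17 cytokine genes and receptors that act upstream of chemokine genes, 11 passed, and 2 were called in each direction (18.2%). Il1b (1.11, adjusted p = 0.0145) and Il18 (1.00, adjusted p = 0.00494) were higher, and the receptor gene Il1r1 (-0.83, adjusted p = 0.0346) and the alarmin gene Il33 (-1.72, adjusted p = 0.000873) were lower. With a CD34- mean of 6.47, Il1b passed the filter only through the CD34+ fraction.

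Markers of other skin cells also differed between the fractions, and their part in the chemokine differences was not tested. The summed linear signal of 11 T cell markers ranged from 656.4 to 1961.2 on CD34+ arrays and from 2522.6 to 4527.4 on CD34- arrays. Of the 5 that passed, 4 were called lower (80%, beside 12.3% of all genes), Cd3e, Cd3g, Cd7 and Thy1. These moved in the direction of Xcl1, Ccr6 and Cxcr6, while Cxcr3 differed by -0.01. Cd7, with a CD34+ mean of 5.095, passed the filter only through the CD34- fraction. Cd8a, which also passed, went the other way and was not called (0.45, adjusted p = 0.208). Among the dim markers, Cd3d, Cd247, Cd2 and Cd28 had negative differences and Il2rb and Cd4 positive ones in the fit without the filter. The summed signal of 9 Langerhans and dendritic cell markers was 5238.2 to 14675 in CD34+ and 3992 to 6686.9 in CD34-. Of these, 3 of the 6 that passed were called higher (50%, beside 12.4% of all genes), H2-Aa, H2-Ab1 and Itgax. Cd207, which also passed, differed by 0.24 (adjusted p = 0.815) and was not called. The sum of 9 macrophage markers was 1945.1 to 4216.6 in CD34+ and 917.9 to 1555.9 in CD34-. The 3 that passed, C1qb, Csf1r and Adgre1, were all called higher (100%, beside 12.4% of all genes). C1qb, with a CD34- mean of 6.385, passed only through the CD34+ fraction. Among the dim macrophage markers, the fit without the filter called C1qc higher (3.69, adjusted p = 0.000488). It did not call the others, with Cd68 at 0.03 and Itgam at 0.07. The called markers of the dendritic cell and macrophage lists moved in the direction of Cxcl9 and Ccl17. Cx3cr1 (-0.78) and Ccr6 (-0.74) were called in the opposite direction. Ccl2 (-0.62) and Ccr2 (-0.37) were also negative but not called, and neither Cxcl10 nor Cxcl11 was called.

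Fibroblasts are a known source of CXCL12. The summed signal of 6 fibroblast markers was 3085.6 to 8701.1 in CD34+ and 486.9 to 855.6 in CD34-. The 3 that passed were called higher (100%, beside 12.4% of all genes), Col1a2 by 3.49, Pdgfra by 1.59 and Dcn by 1.53. Pdgfra, with a CD34- mean of 6.54, passed only through the CD34+ fraction. Among the dim ones, the fit without the filter called Col3a1 higher (4.17, adjusted p = 0.00436). Col1a1 (0.98) and Lum (0.31) were not called, and without CD34+ array 1 they differed by 0.23 and -0.41. CD34+ array 1 had the highest sum and the highest Cxcl12, but also the highest Cxcl14 and the highest actin ratio. The part of fibroblasts in the Cxcl12 difference was not tested. Of 8 endothelial markers none passed the filter, with sums of 247.5 to 680.3 in CD34+ and 210.5 to 304.1 in CD34-. Of 5 neutrophil markers none passed either, with sums of 221 to 576.1 in CD34+ and 132.5 to 280.5 in CD34-. Of 5 mast cell markers 1 passed, Kit, which was called lower, as were 12.3% of all genes. The sums were 395.6 to 713.3 in CD34+ and 662.4 to 1341.4 in CD34-. The dim ones went the other way in the fit without the filter, Mcpt4 by 1.77, Cma1 by 1.27, Tpsb2 by 1.08 and Cpa3 by 0.13, and were not called. The lower sum therefore does not describe the list as a whole. Cd4, Mcpt4, Cpa3, Cdh5, Tek, Tie1 and Prox1 stayed under the 40th percentile of every array.

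**Figure D4:**
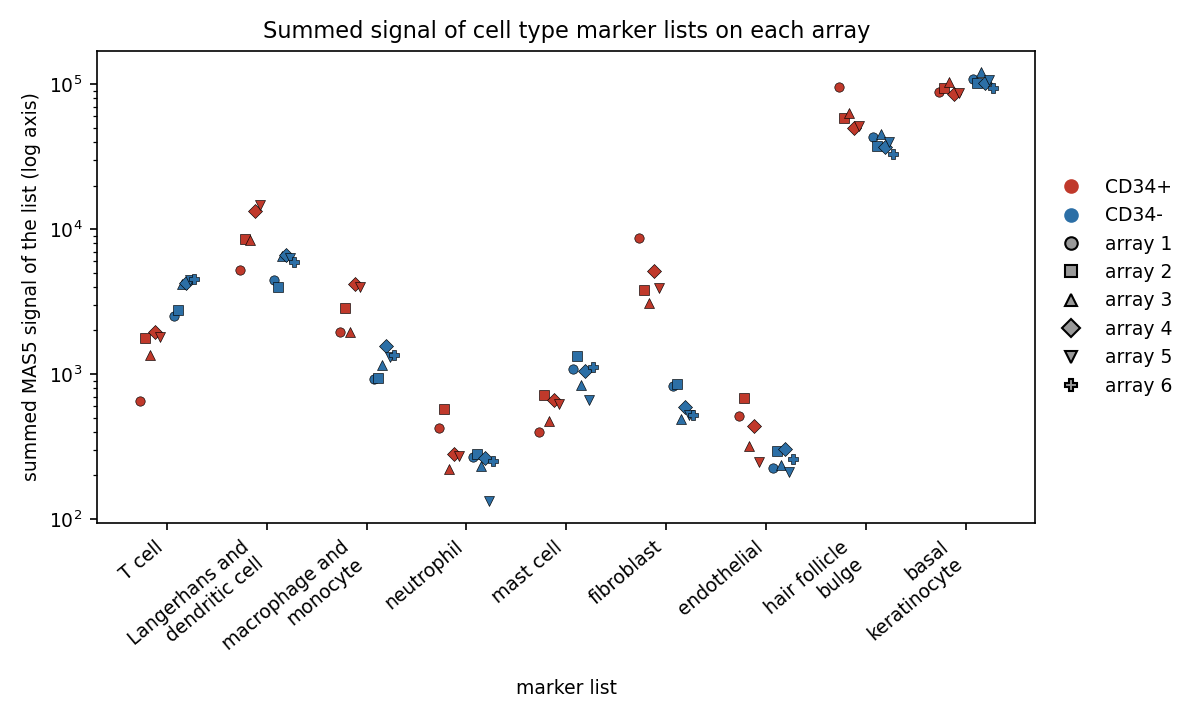
Summed linear signal of each list of cell type markers on a log axis, 1 point per array, with CD34+ to the left of CD34- for each list on the horizontal axis. T cell markers are lower in CD34+, at 656.4 to 1961.2 against 2522.6 to 4527.4, and fibroblast markers are higher, at 3085.6 to 8701.1 against 486.9 to 855.6, each with no overlap.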

How the data were processed

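Total RNA of each fraction was hybridised to single-channel Affymetrix expression arrays. The authors deposited 1 log2 value per probe set and array, which per the submitters' processing notes came from MAS5 (version not given in the sources used here). Mean linear signal after trimming 2% at each end was 500.002 to 500.004 on every array, and the values were used without further normalization. Of 45101 probe sets, 64 were controls, 34945 had 1 gene symbol, 932 had several and 9160 had none, and the annotation matched names of GRCm38.p6 for 34741. The dimmest 40% of genes were left out, and 10916 genes were fitted with limma 3.58.1 in R 4.3.3 (trend moderation, prior degrees of freedom 5.5, Benjamini-Hochberg adjustment), 5 CD34+ against 6 CD34- arrays. The model was tested on simulated data with 200 changed genes. The number of arrays limits the precision, and the median standard error of the 22 genes was 0.30.

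The genes and lists were chosen with earlier results of these data known. Every chemokine and receptor gene is accounted for. Those that passed the filter are named with their difference, and of each pathway list the called genes are named. Alternatives were quantile normalization, values raised to the 40th percentile, no filter, a filter of 60%, the mean of probe sets, other probe sets, the replicate number as a block, the actin ratio as a covariate, moderation without the trend, and arrays left out.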

Additional observations from a re-analysis of the deposited data

Results flagged for a closer look

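In 102 groups of values, 1 array stood apart from the rest of its own fraction in 10 cases, by Dixon's gap test, and chance gives about 1 in 20. Of these, 3 fell on CD34+ array 1, the array with the highest actin ratio. Ackr2 had 6.435 there, with 9.23 to 9.854 on the other CD34+ arrays. Ackr4 had 3.285, with 7.216 to 7.859 on the others, and Ccl4 had 3.337, with 6.966 to 7.513 on the others. On CD34+ array 2, Cxcl17 had 9.017 against 6.967 to 7.462, and Ccl1, a dim gene, had 8.553 against 6.401 to 6.995. Among CD34- arrays, Xcl1 had 6.558 on array 2 against 7.331 to 7.782 on the others. The other 4 were dim genes on CD34- arrays. Ccl6 had 2.531 on array 5 against 4.712 to 5.905, and Ccr7 had 3.755 on array 4 against 2.135 to 2.638. Cxcl3 had 1.267 on array 6 against 3.571 to 4.883, and Cxcr5 had 3.066 on array 1 against 4.497 to 5.258.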

How the results depend on the processing

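With 4 genes called higher and 4 lower as reported, the counts were 2 and 2 with the dimmest 60% of genes left out (7 chemokine and receptor genes remained), 2 higher with the mean of probe sets (Cxcl12 and Ccl17 lost), and 0 and 0 after adjusting for the actin ratio. Leaving out 1 array gave 3 to 4 higher and 1 to 4 lower. The calls over all genes changed as well, from 1350 higher and 1347 lower of 10916 as reported. They were 743 and 1187 of 7277 with the 60% filter, and 973 and 783 with the mean of probe sets. With the actin ratio they were 96 and 30. With 1 array left out they were 969 to 1370 higher and 896 to 1419 lower. The median difference of -0.086 became -0.41 with quantile normalization, 0.14 with no filter (51 genes), 0.53 with the 60% filter, 0.24 with the actin ratio and 0.27 without CD34+ arrays 1 and 2. Leaving out 1 array gave -0.20 to 0.079. Its sign therefore depended on the setting. Ackr4 turned direction with the actin ratio (0.26) and on its other probe sets (0.94 and 0.87); the cause was not tested. With the replicate block, 4 genes were called higher and 3 lower, Ccl17, Ccr6 and Xcl1 being lost and Cxcl14 and Ackr2 gained, and 1043 and 991 of all genes. Deviations of same-numbered arrays correlated by 0.02 to 0.192, under 0.1 for 2 of 5 numbers. Arrays of unlike number were not compared, so these values cannot settle whether the numbers pair arrays. The fit reported above did not pair them. For single genes under other settings, 138 values kept their direction and side of the threshold, 20 lost the call, 10 gained it and 3 turned, all of Ackr4. A further 20 turned sign without being called in either fit. Among fits that left out an array these were 191, 29, 5, 0 and 17. The 9 uncalled genes that turned were Ackr1, Ackr2, Ccl4, Ccl8, Ccr2, Cxcl10, Cxcl11, Cxcl16 and Cxcr3. The alternatives for the excess of Cxcl9 over Cxcl10 and Cxcl11 were chosen after seeing the data. Dim signal and probe sets that disagree limit Ccl17, Ackr4 and the 29 dim genes.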
